A study of Homo sapiens with 59 samples.

Results

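The constitutive proteasome subunits analysed here are 34 genes whose symbols begin with PSMA, PSMB, PSMC or PSMD followed by a number. The inducible or tissue-restricted forms PSMB8, PSMB9, PSMB10, PSMB11 and PSMA8 were left out, and a mean normalised count of at least 10 was required in each of 7 deposited tables. All 34 candidate genes met that minimum, out of 34622 gene names in the tables. Of them, 14 encode the core particle (PSMA1 to PSMA7 and PSMB1 to PSMB7) and 20 carry names of the regulatory particle (PSMC1 to PSMC6 and PSMD1 to PSMD14).

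The proteasome degrades proteins tagged with ubiquitin and returns their amino acids to the cell. Its core is a barrel of outer alpha rings and inner beta rings, with the protease sites in PSMB5 (chymotrypsin-like), PSMB6 (caspase-like) and PSMB7 (trypsin-like). The regulatory particle caps the barrel: the PSMC proteins form a ring of ATPases that unfolds the substrate, and the PSMD proteins bind, trim and pass on ubiquitinated substrates. PSMD5, PSMD9 and PSMD10 are chaperones of regulatory particle assembly and are not kept in the finished complex. When proteasome activity is short, cells can raise the subunit genes together through the transcription factor NFE2L1.

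The cells were Jurkat, an established human T cell leukaemia line, collected on day 3 of culture. Restricted cultures were labelled as holding 25% of histidine, methionine, phenylalanine, tryptophan, isoleucine, leucine or valine, with 5 libraries each. Histidine, methionine, phenylalanine and tryptophan each had a control group of their own with 5 libraries, and a branched-chain control of 4 libraries served isoleucine, leucine and valine. No allele or further agent is labelled for any group, and what the control media held was not given in the sources used here. Nothing in the labels says that numbered libraries are separate cultures, so each p-value reflects only how far these libraries differed, possibly for technical reasons.

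In all, 59 libraries made up 67 columns of 7 tables, each table normalised on its own, with 14949649 to 20539287 normalised counts per library. Of 10 T cell markers, 9 had a median of at least 100 normalised counts, CD28 had a median of 30.5, and the B cell marker MS4A1 and the myeloid marker CSF1R were at 0 in every library. In the lists of other cell types, the B cell marker CD79A (median 345), the fibroblast marker COL1A1 (281) and the epithelial marker KRT18 (104) were present, and every other marker had a median under 100. Phenylalanine control 1 and histidine control 3 stood apart: their median correlations with their groups were 0.874 and 0.915, and their summed fibroblast markers were 1960 and 6446, against at most 344 and 316 in the rest of each group. Heat-shock mRNA also differed between arms. HSPA1B, a heat-inducible chaperone, was lower in the restricted cultures by log2 changes of -4.05 (histidine), -5.06 (methionine), -4.10 (phenylalanine), -4.64 (valine) and -1.61 (tryptophan). It was not called for leucine (-0.62) or isoleucine (0.40). Of a list of 10 stress genes that holds HSPA1B, 8 were called lower and 2 higher with histidine and 7 and 3 with methionine. With tryptophan 6 and 2 of the 9 measured were called. With phenylalanine 7 were called lower, with valine 8, with leucine 6 (lowest change -3.56) and with isoleucine 0, and 0 higher in each. The shares of all genes called are given below. The part of these differences in the proteasome values was not tested.

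Promoter windows are shown for the members with the largest changes. PSMD12 and PSMA2 had the largest falls under tryptophan restriction in the regulatory and the core particle, PSMB3 had the largest fall under methionine restriction and PSMD7 the largest rise. Each is the 250 bases before the RefSeq gene start on GRCh38.p14, written 5′ to 3′ on the gene's strand: chr17:67366578-67366827 (minus) for PSMD12, chr7:42932175-42932424 (minus) for PSMA2, chr17:38752491-38752740 (plus) for PSMB3 and chr16:74296564-74296813 (plus) for PSMD7. Capitals mark TGACNNNGC, the core of the antioxidant response element to which NFE2L1 and NFE2L2 bind with small MAF proteins, and CCAAT, the box bound by NF-Y.
PSMD12: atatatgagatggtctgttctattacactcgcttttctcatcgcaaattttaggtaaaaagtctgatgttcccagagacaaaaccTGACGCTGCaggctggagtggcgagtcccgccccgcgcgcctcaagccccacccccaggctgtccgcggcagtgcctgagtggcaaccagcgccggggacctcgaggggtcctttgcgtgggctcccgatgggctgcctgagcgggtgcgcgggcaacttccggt
PSMA2: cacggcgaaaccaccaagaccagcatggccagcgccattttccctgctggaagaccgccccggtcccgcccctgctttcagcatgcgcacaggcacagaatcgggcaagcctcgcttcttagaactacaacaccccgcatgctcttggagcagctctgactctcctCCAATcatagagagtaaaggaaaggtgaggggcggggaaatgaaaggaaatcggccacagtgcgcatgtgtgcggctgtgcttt
PSMB3: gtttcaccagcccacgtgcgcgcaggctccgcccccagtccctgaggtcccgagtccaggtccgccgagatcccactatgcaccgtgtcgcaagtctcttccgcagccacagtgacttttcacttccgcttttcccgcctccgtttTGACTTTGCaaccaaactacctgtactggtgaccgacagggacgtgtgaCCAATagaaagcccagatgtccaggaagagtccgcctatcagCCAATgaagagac
PSMD7: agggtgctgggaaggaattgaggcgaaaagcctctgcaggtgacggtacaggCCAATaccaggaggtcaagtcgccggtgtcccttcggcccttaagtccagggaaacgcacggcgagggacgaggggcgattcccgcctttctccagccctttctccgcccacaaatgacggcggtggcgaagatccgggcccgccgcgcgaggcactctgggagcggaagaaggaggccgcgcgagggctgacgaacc

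The table of promoters, with windows of 250 bases before to 50 after the start, held 29 of the 34 members and 27305 genes in all. TGACNNNGC, searched on both strands, was in 9 of the 29 members (31.0%) and in 16.1% of all genes, and no match was also the AP-1 site TGACTCA. By particle, 2 of 10 core members and 7 of 19 regulatory particle members held it. It lay 165 bases before the start in PSMD12 and 104 bases before it in PSMB3, and was not found in the windows of PSMA2 and PSMD7. CCAAT on both strands was in 16 of 29 members (55.2%) and 39.7% of all genes. The heat-shock core GAANNTTC was in 0 of 29 members and 8.2% of all genes. Members with and without TGACNNNGC had overlapping ranges of response. Under tryptophan restriction the 9 with a match ranged from -1.14 to -0.25 (median -0.55) and the 20 without from -1.03 to -0.18 (-0.65) in log2 change. With methionine the ranges were -1.001 to 0.43 (median 0.07) and -0.83 to 0.78 (-0.02). With histidine they were -0.42 to 0.22 (median -0.12) and -0.73 to 0.68 (0.20). These differences were not tested.

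Values below are normalised counts, and changes are differences of mean log2(normalised count + 1), restricted minus control, so that -1 is a halving on that scale. A gene is called where limma's moderated test gives an adjusted p (Benjamini-Hochberg, over all genes of the table with a mean of at least 10) under 0.05. Each value is relative to the other genes of its library, so less RNA of a gene per cell and fewer cells that express it cannot be told apart. The values are not shares of a library's total. In the tryptophan and methionine tables every restricted library had a lower total than every control, so a fall in normalised count need not be a fall in share. Shares of the total and changes under equal totals are given separately below. The map of changes sets all members and comparisons side by side.

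**Figure D1:**
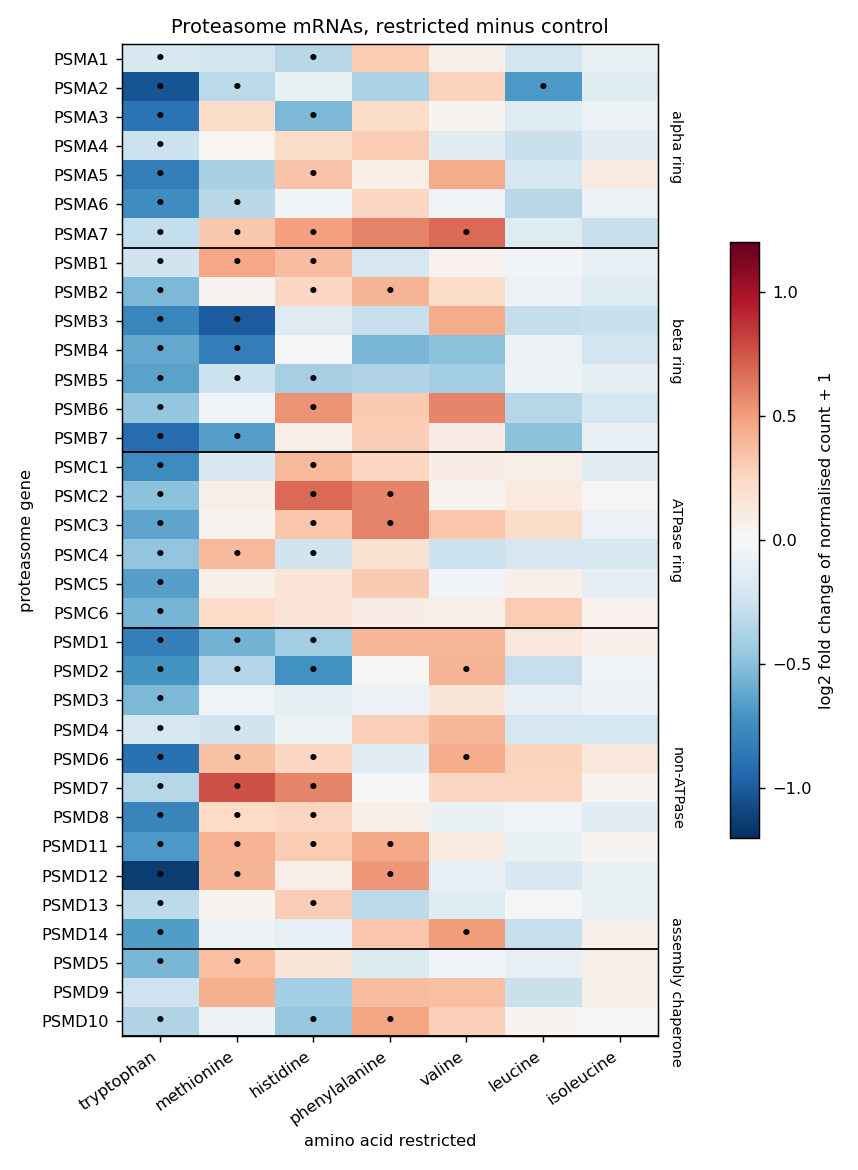
Colour gives the log2 fold change of normalised count + 1 (restricted minus control) of each of the 34 genes (rows, by ring) in each comparison (columns), and a dot marks an adjusted p under 0.05. The tryptophan column is blue in all 34 rows with 33 dots, the methionine and histidine columns hold dots in both colours, and the isoleucine column holds none.

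Under tryptophan restriction the mRNA of 33 of the 34 members was lower than in the tryptophan controls. All 14 core genes and 19 of 20 regulatory particle genes were called lower and 0 higher, while 27.7% of all 16630 genes tested were called lower and 23.6% higher. The median change was -0.63 for the core and -0.59 for the regulatory particle, about 1.55-fold and 1.51-fold lower, against a median of 0.03 over all genes. In 28 members every restricted library lay below every control library, which held for 21.9% of all genes.

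The alpha ring held the largest core change. PSMA2, an alpha ring subunit, had 1677, 1783, 1902, 1765 and 1737 normalised counts in the 5 restricted libraries and 3996, 3697, 3439, 3691 and 3347 in the 5 controls. The highest restricted library was thus well below the lowest control, with a change of -1.03 ± 0.06 (SE) and an adjusted p of 6.29e-09. PSMA3, PSMA5 and PSMA6 fell by 0.89, 0.82 and 0.74 on the log2 scale, and PSMA7 and PSMA4 fell by 0.29 and 0.26. The call of PSMA4, whose groups overlapped, was lost without tryptophan restricted 1, 3 or 4 or tryptophan control 1 or 4 (adjusted p of 0.0511 to 0.0591). PSMA1, another alpha subunit, had the smallest called change of all members. It had 2978 ± 147 (SD, n = 5) normalised counts in restricted and 3387 ± 205 (SD, n = 5) in control libraries, and the groups overlapped (-0.18 ± 0.06 (SE), adjusted p = 0.0165).

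All 7 beta ring genes fell with no overlap of the groups, the 3 protease subunits among them. PSMB5 had 1235, 1282, 1296, 1217 and 1236 normalised counts in restricted libraries and 2013, 2021, 2054, 1876 and 1833 in controls (-0.64 ± 0.06 (SE), adjusted p = 3.04e-07). PSMB6 had 1947, 1761, 1954, 2045 and 1917 against 2737, 2598, 2906, 2538 and 2491 (-0.46 ± 0.06 (SE), adjusted p = 1.96e-05). PSMB7 had 2720, 2329, 2353, 2873 and 3054 against 4926, 5082, 5048, 5167 and 4797 (-0.92 ± 0.07 (SE), adjusted p = 1.6e-07). The 3 protease genes therefore fell by unequal amounts, PSMB7 by the most and PSMB6 by the least. Of the structural beta subunits, PSMB3, PSMB4, PSMB2 and PSMB1 fell by 0.78, 0.62, 0.54 and 0.24.

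In the regulatory particle the largest change was that of PSMD12, a scaffold subunit of the lid. It had 602, 681, 753, 747 and 675 normalised counts in the restricted libraries and 1895, 1541, 1290, 1692 and 1264 in the controls. Every control was far above every restricted library (-1.14 ± 0.11 (SE), adjusted p = 8.95e-07). PSMD6, PSMD1, PSMD8, PSMD2 and PSMD11 fell by 0.90, 0.82, 0.79, 0.72 and 0.69, and PSMD14, the deubiquitinase of the lid, by 0.67. The 6 ATPases fell within a narrow range, from -0.75 for PSMC1 to -0.47 for PSMC4. The groups were apart for 4 of the 6 and overlapped for PSMC1 and PSMC2. The call of PSMC2 (-0.49, adjusted p = 0.0305) was lost without tryptophan restricted 2 or 3 or tryptophan control 2 or 4 (adjusted p of 0.0673 to 0.0823). PSMD4, a ubiquitin receptor, changed least among the called regulatory genes (-0.20). PSMD9 was the 1 member not called: its 324, 270, 222, 222 and 285 normalised counts overlapped the controls' 433, 257, 264, 294 and 335 (-0.25 ± 0.15 (SE), adjusted p = 0.191).

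**Figure D2:**
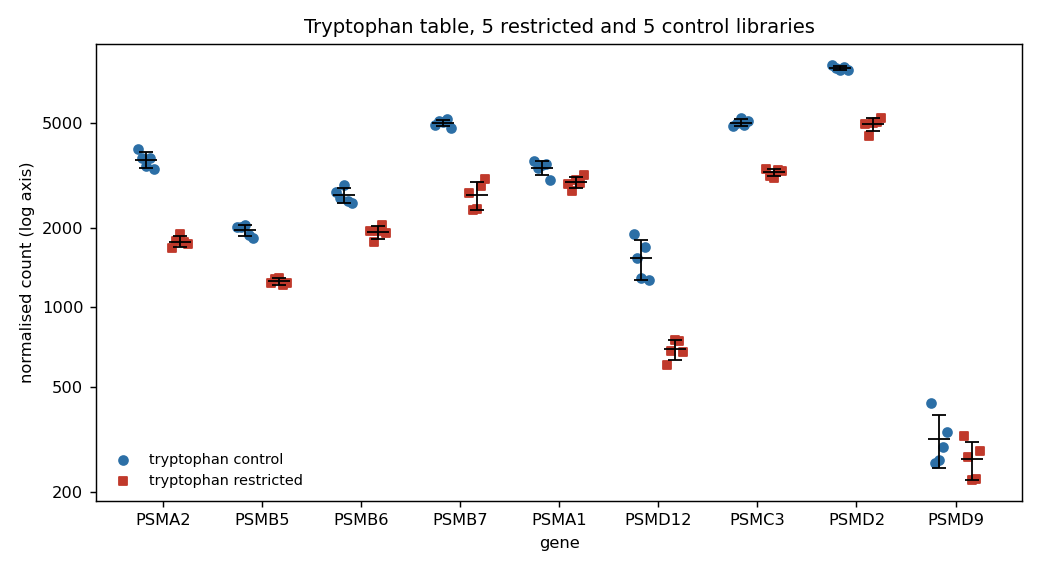
Normalised counts (log axis) of 9 members in the 5 tryptophan-restricted (squares) and 5 tryptophan control (circles) libraries, with mean and SD as bars. The groups are apart for 7 of the genes, PSMA2 among them (highest restricted library 1902, lowest control 3347), and overlap for PSMA1 and PSMD9.

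Scaling every library to the same total raised the median of all tryptophan changes by 0.24 on the log2 scale. Then 10 core and 14 regulatory particle genes were called lower and 0 higher, 31 of 34 changes were below 0, and the 3 others, PSMA1 (0.061), PSMB1 (0.0060) and PSMD4 (0.042), were not called. Relative to the all-gene median the core stood at -0.66 under the deposited scale and -0.65 under equal totals. A change of scale moves all genes nearly alike, so these values could hardly differ and nothing is read from them. The share of called genes that were higher moved from 45.9% to 70.8% of all calls under equal totals. The share of all genes called lower under equal totals is not given, so the member counts are not set against it.

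The tryptophan control libraries themselves held more proteasome mRNA than the other controls. As a share of each library's total, which does not depend on a table's scale, core mRNA made up 2459 ± 77.6 (SD, n = 5) parts per 1000000 normalised counts (ppm) in tryptophan controls and 1934 ± 42.4 (SD, n = 5) in tryptophan-restricted libraries. The other control groups had means of 1878 (histidine), 1823 (methionine), 1896 (phenylalanine) and 1920 (branched-chain, in the valine table) ppm. For the regulatory particle the tryptophan controls had 3377 ± 69.7 (SD, n = 5), the restricted libraries 2659 ± 46.7 (SD, n = 5) and the other control groups means of 2128 to 2286 ppm. The core share of the restricted libraries thus lay just above the highest of the other control means, and their regulatory particle share further above.

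Gene by gene, the tryptophan control median was above the median of the 19 other control libraries for 34 of 34 members, which held for 43.9% of all genes. For 12 members every tryptophan control library exceeded all 19 others, against 11.0% of 15654 genes. Without phenylalanine control 1 and branched-chain control 1, which were high in proteasome mRNA, the count was 21 members, against 12.4% of genes. As these libraries were left out for their high proteasome mRNA, that count could only stay or rise, and nothing is read from it. PSMD6 showed it clearly, with a share of 192 to 235 ppm in tryptophan controls, 77.0 to 95.4 in the other controls and 126 to 142 in tryptophan-restricted libraries. The median of the restricted libraries fell inside the range of the other controls for 13 of 14 core and 12 of 20 regulatory particle genes, and for 79.3% of all genes. These tables were normalised separately, so no test was made between them, and whether the difference comes from the restricted or the control cultures cannot be told apart. The T cell markers moved the same way, with summed levels of 56243 to 58718 in restricted and 67374 to 73633 in control libraries. Summed B cell markers (361 to 532 restricted, 267 to 342 control, with MS4A1 at 0) and fibroblast markers (258 to 360 and 151 to 240) were higher in restricted libraries, and their part in the result was not tested.

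**Figure D3:**
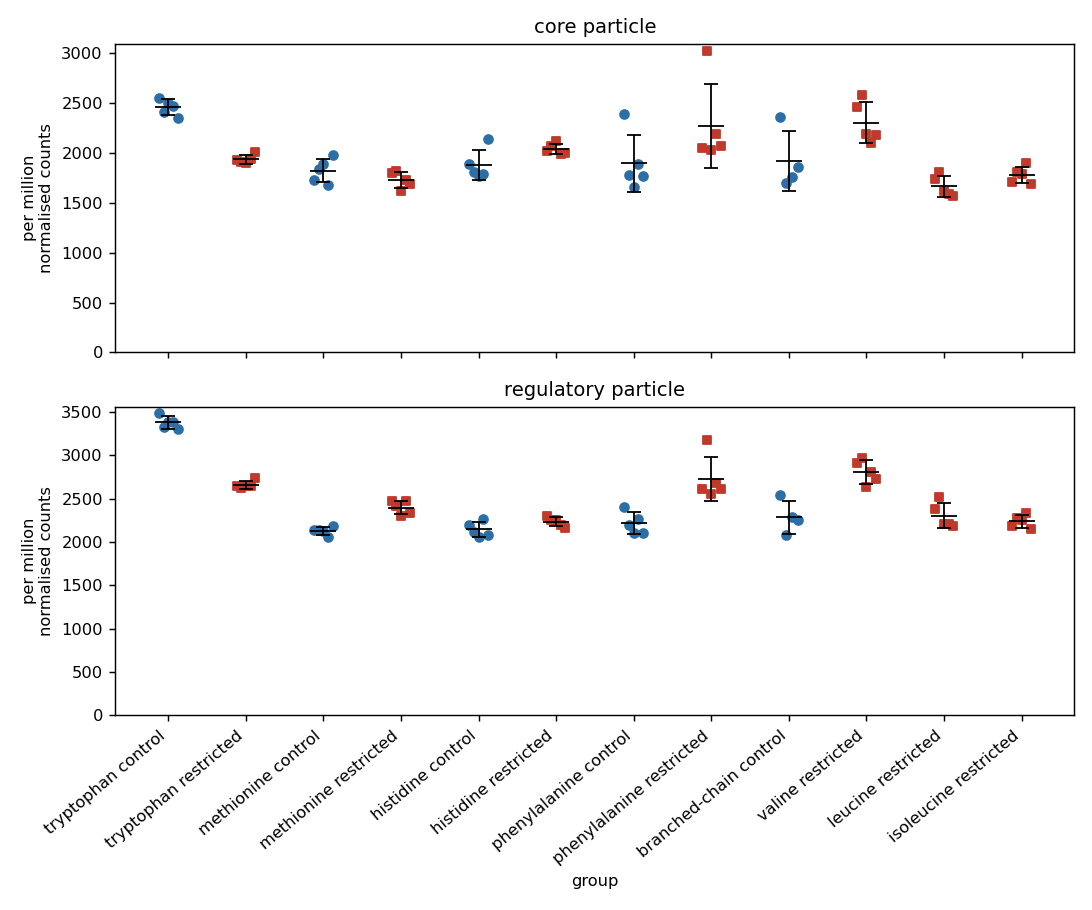
Summed core (top) and regulatory particle (bottom) mRNA per 1000000 normalised counts (ppm) in each library of the 12 groups, controls as circles and restricted libraries as squares, with mean and SD as bars. Tryptophan controls lie highest among the control groups, with core means of 2459 against 1823 to 1920 ppm, and single libraries stand above the rest in the phenylalanine and branched-chain groups.

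Under methionine restriction members were called both ways in each particle. In the core 2 genes were called higher and 6 lower, and in the regulatory particle 7 higher and 3 lower, against 27.8% higher and 25.4% lower of all 16889 genes. The 9 of 34 members called higher and 9 of 34 called lower are shares close to those of all genes, and the difference between the particles was not tested. The median change was -0.24 for the core and 0.07 for the regulatory particle, with 0.02 over all genes, and single members spread from -1.001 to 0.78.

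PSMB3, a structural beta subunit, fell most. Its 962, 985, 715, 843 and 770 normalised counts in restricted libraries were all below the 1769, 1624, 1833, 1366 and 1972 of the controls (-1.001 ± 0.11 (SE), adjusted p = 4.67e-06). PSMB4 fell by 0.83, PSMA6 by 0.33 and PSMA2 by 0.32. The call of PSMA2 was lost without methionine restricted 1, 2, 3 or 4 or methionine control 3 or 5 (adjusted p of 0.0549 to 0.0768). Of the protease subunits, PSMB7 had 1804, 1780, 1487, 1822 and 1346 against 1855, 2953, 2492, 2651 and 3226 and fell without overlap (-0.66 ± 0.13 (SE), adjusted p = 8.39e-04). PSMB5 had 1262, 1191, 1117, 1186 and 1291 against 1399, 1564, 1641, 1206 and 1446, with overlap (-0.26 ± 0.09 (SE), adjusted p = 0.0207). Its call was lost without methionine restricted 3 or methionine control 2 or 3 (adjusted p of 0.0513 to 0.0541). PSMB6 did not pass the test, with 1505, 1570, 1310, 1603 and 1367 against 1520, 1641, 1514, 1322 and 1633 (-0.05 ± 0.08 (SE), adjusted p = 0.610).

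Against that direction in the core, PSMB1 and PSMA7 rose. PSMB1, a beta subunit without protease activity, had 2144, 2039, 1836, 2108 and 2220 against 1331, 1501, 1699, 1172 and 1859 in controls, where 1 control exceeded 1 restricted library (0.47 ± 0.11 (SE), adjusted p = 0.00266). PSMA7 had 3927, 3762, 3397, 3743 and 3670 against 3155, 2715, 3014, 2750 and 3137, without overlap (0.33 ± 0.07 (SE), adjusted p = 8.83e-04).

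In the regulatory particle PSMD7, the partner of the lid deubiquitinase, rose most. It had 2225, 1894, 1728, 2111 and 1808 normalised counts in restricted libraries and 1069, 1271, 1006, 1024 and 1338 in controls, with no overlap (0.78 ± 0.10 (SE), adjusted p = 1.53e-05). PSMD11, PSMD12, PSMC4, PSMD5, PSMD6 and PSMD8 rose by 0.42, 0.40, 0.39, 0.37, 0.36 and 0.24. Against that direction, 3 members fell. PSMD1, a large scaffold subunit of the base, had 919, 809, 852, 1067 and 1044 against 1231, 1529, 1422, 1307 and 1421 in controls, without overlap (-0.56 ± 0.09 (SE), adjusted p = 1.54e-04). PSMD2, its counterpart in the base, had 4206, 4076, 3852, 4198 and 4152 against 5317, 5292, 5426, 4825 and 5252, also without overlap (-0.35 ± 0.06 (SE)). PSMD4, a ubiquitin receptor, had 2440, 2609, 2314, 2711 and 2903 against 2673, 3073, 3553, 2726 and 3292, with overlap (-0.23 ± 0.09 (SE)). The call of PSMD4 was lost without methionine restricted 1, 2 or 3 or methionine control 2, 3 or 5 (adjusted p of 0.0629 to 0.0984). Under equal totals, which raised the median of all genes by 0.13, the core had 3 genes higher and 4 lower and the regulatory particle 11 higher and 2 lower. The share of called genes that were higher then went from 52.2% to 62.6%. As the share of all genes called under equal totals is not given, the member counts are not set against it. Summed B cell markers were 653 to 817 in restricted and 202 to 244 in control libraries, with MS4A1 at 0, and epithelial markers 212 to 228 and 98.4 to 183. Their part in the result was not tested.

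**Figure D4:**
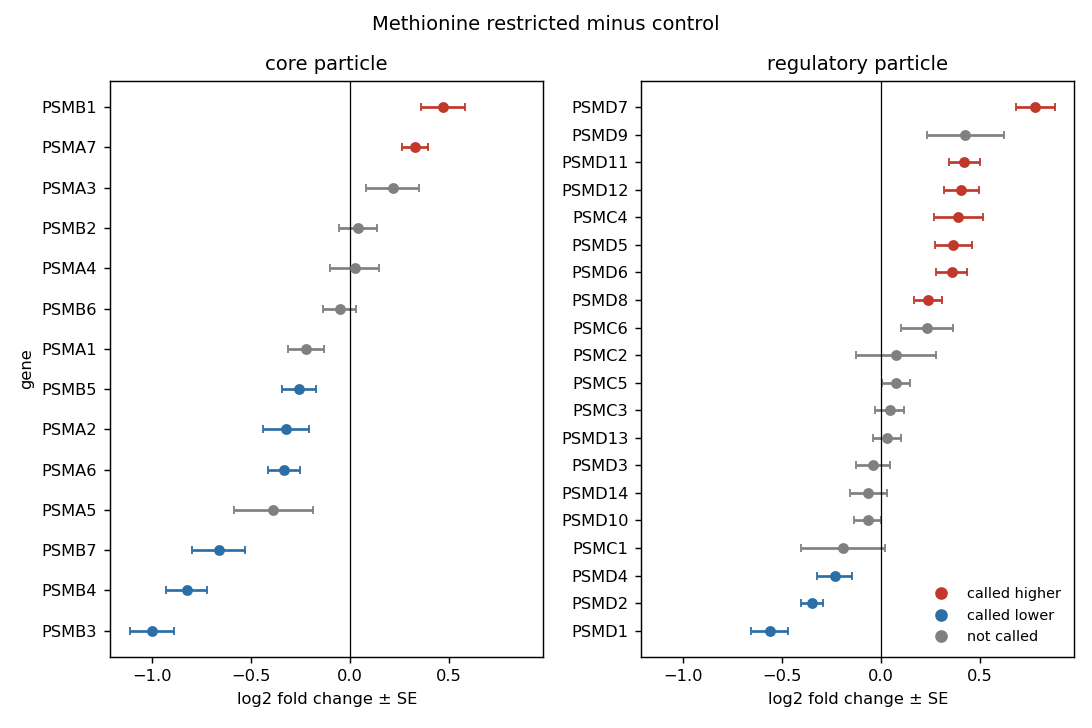
Log2 fold change of each gene under methionine restriction with its standard error as bars, core particle left and regulatory particle right, ordered by size. The core runs from PSMB3 (-1.001) to PSMB1 (0.47) with 6 genes called lower, and the regulatory particle from PSMD1 (-0.56) to PSMD7 (0.78) with 7 called higher.

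Histidine restriction also split the members. In the core 5 genes were called higher and 3 lower, and in the regulatory particle 8 higher and 4 lower, against 15.6% higher and 12.3% lower of all 17740 genes. That made 13 of 34 members higher and 7 of 34 lower. The medians were near 0, at 0.02 for the core, 0.15 for the regulatory particle and -0.01 for all genes.

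PSMB6 and PSMB5, both protease subunits, went opposite ways. PSMB6 had 2550, 2405, 2608, 2240 and 2298 normalised counts in restricted and 1750, 1630, 1568, 1520 and 1861 in control libraries (0.54 ± 0.07 (SE), adjusted p = 1.17e-04). PSMB5 had 1101, 1064, 1152, 1185 and 1153 against 1471, 1380, 1542, 1466 and 1617 (-0.40 ± 0.07 (SE), adjusted p = 5.29e-04). Neither gene's groups overlapped. PSMB7 had 3262, 2987, 3053, 3198 and 2892 against 2903, 2731, 2676, 3192 and 3231, with overlap and no call (0.07 ± 0.07 (SE), adjusted p = 0.501). PSMA7 rose by 0.49 and PSMB1, PSMA5 and PSMB2 by 0.37, 0.34 and 0.25, while PSMA1, with 2185, 2044, 2106, 2324 and 2212 against 2514, 2668, 2613, 2690 and 3284, fell by 0.34 without overlap. PSMA3 fell most in the core, from 984, 1007, 961, 875 and 1373 in controls to 735, 693, 719, 717 and 677 in restricted libraries (-0.54 ± 0.10 (SE), adjusted p = 0.00180).

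Of the ATPases, PSMC2 rose most, with 1270, 1279, 984, 1243 and 1196 against 879, 794, 458, 962 and 737 (0.68 ± 0.16 (SE), adjusted p = 0.00695). The lowest of its control values was that of histidine control 3, and the groups did not overlap. PSMC1 and PSMC3 rose by 0.39 and 0.34. PSMC4, with 1363, 1208, 1346, 1330 and 1148 against 1425, 1552, 1649, 1543 and 1366, fell by 0.24. PSMD2 fell most, with 3167, 2947, 3043, 3119 and 3140 in restricted against 4722, 5338, 5078, 5741 and 4704 in control libraries (-0.73 ± 0.07 (SE), adjusted p = 3.92e-06). PSMD10, the chaperone also called gankyrin, had 1145, 1164, 1123, 1191 and 1174 against 1586, 1652, 1388, 1565 and 1805 and fell by 0.46. PSMD1 had 1275, 1178, 1181, 1138 and 1164 against 1769, 1649, 1315, 1672 and 1569 and fell by 0.42, and neither gene's groups overlapped. Of the other lid and base genes, PSMD7, PSMD11, PSMD13, PSMD8 and PSMD6 rose by 0.58, 0.31, 0.30, 0.26 and 0.25. Summed epithelial markers were 70.9 to 98.2 in restricted and 128 to 984 in control libraries, without overlap, and their part in the result was not tested. Without histidine control 3, the library high in fibroblast and epithelial markers, PSMC4 lost its call (-0.20, adjusted p = 0.0675). It was also lost without histidine restricted 2 or 5 or histidine control 2 or 4, and PSMD6 without histidine restricted 1 or 4. Leaving out any 1 library left between 8 and 9 core and 11 and 12 regulatory particle genes called.

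Some members took the same direction under histidine and methionine restriction, which have separate controls. Of the 13 genes that rose with histidine and the 9 that rose with methionine, 6 were shared (46.2% and 66.7% of each list): PSMA7, PSMB1, PSMD6, PSMD7, PSMD8 and PSMD11. Among all genes tested in both, the shares were 60.2% and 36.0%. Of the 7 and 9 that fell, 3 were shared (42.9% and 33.3%): PSMB5, PSMD1 and PSMD2, with shares of 58.6% and 28.0% among all genes. Histidine and phenylalanine shared 4 of 13 and 6 rises (30.8% and 66.7%): PSMB2, PSMC2, PSMC3 and PSMD11, with shares of 10.4% and 41.4% among all genes. PSMC4 was called lower with histidine and higher with methionine. None of these overlaps was tested.

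Phenylalanine restriction gave 6 called members, all higher: PSMB2 in the core and PSMC2, PSMC3, PSMD10, PSMD11 and PSMD12 in the regulatory particle, against 4.11% higher and 6.09% lower of all 17021 genes. PSMB2, a structural beta subunit, had 2721, 3440, 2695, 3025 and 2891 normalised counts in restricted and 2152, 2374, 2164, 2336 and 2067 in control libraries, without overlap (0.41 ± 0.09 (SE), adjusted p = 0.0147). PSMC3, an ATPase, had 3563, 5593, 3217, 3665 and 3561 against 2867, 2502, 2249, 2834 and 2326, also without overlap (0.59 ± 0.14 (SE), adjusted p = 0.0217). Its call was lost without phenylalanine control 2, 3 or 5 (adjusted p of 0.0514 to 0.0582). PSMC2, another ATPase of the ring, rose by 0.59 and PSMD12, PSMD10 and PSMD11 by 0.52, 0.47 and 0.45. The medians were 0.23 for the core, 0.27 for the regulatory particle and 0.03 for all genes.

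The 3 protease genes were not called with phenylalanine. PSMB5 had 1195, 1813, 1079, 1175 and 1164 in restricted and 2652, 1516, 1350, 1538 and 1319 in control libraries (-0.36, adjusted p = 0.290). PSMB6 had 2225, 3669, 1900, 2319 and 2159 against 2664, 1808, 1625, 2074 and 1613 (0.31, adjusted p = 0.321). PSMB7 had 3446, 6053, 3357, 3997 and 3684 against 3752, 3130, 2894, 3454 and 3142 (0.30, adjusted p = 0.254). In all 3 genes the second restricted library was the highest of its group, and the first control the highest of its own.

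Those libraries were high across the members. The mean log2 level of the core, relative to the control mean, was 0.57 in phenylalanine restricted 2 and 0.40 in phenylalanine control 1, while the other 8 libraries lay between -0.22 and 0.03. Branched-chain control 1 was at 0.49 to 0.51 in the 3 tables it serves, above its group's -0.26 to -0.05. Leaving out a library chosen for its proteasome level changes the spread by construction, so the counts without these libraries are given as an alternative only. Without both phenylalanine libraries 7 core genes were called higher and 4 lower, and 9 regulatory particle genes higher and 1 lower. PSMA7 then rose by 0.53, PSMD1 by 0.52, PSMA4 by 0.34 and PSMA1 by 0.30, and PSMB4, PSMA2, PSMD13, PSMB5 and PSMB1 fell by 0.60, 0.40, 0.36, 0.31 and 0.25. Leaving out only phenylalanine restricted 2 gave 3 core calls, with PSMA2 (-0.53) and PSMB4 (-0.69) now lower, and a regulatory particle median of 0.12. Leaving out only phenylalanine control 1 gave 4 core calls, all higher, with PSMA1 (0.37), PSMA4 (0.49) and PSMA7 (0.71) added. Equal totals, which raised the all-gene median by 0.12, gave 3 core and 8 regulatory particle genes higher and moved the share of called genes that were higher from 40.3% to 66.9%. The share of all genes called is not given for these leave-outs or for equal totals. Their counts are therefore not read as a result about the members.

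**Figure D5:**
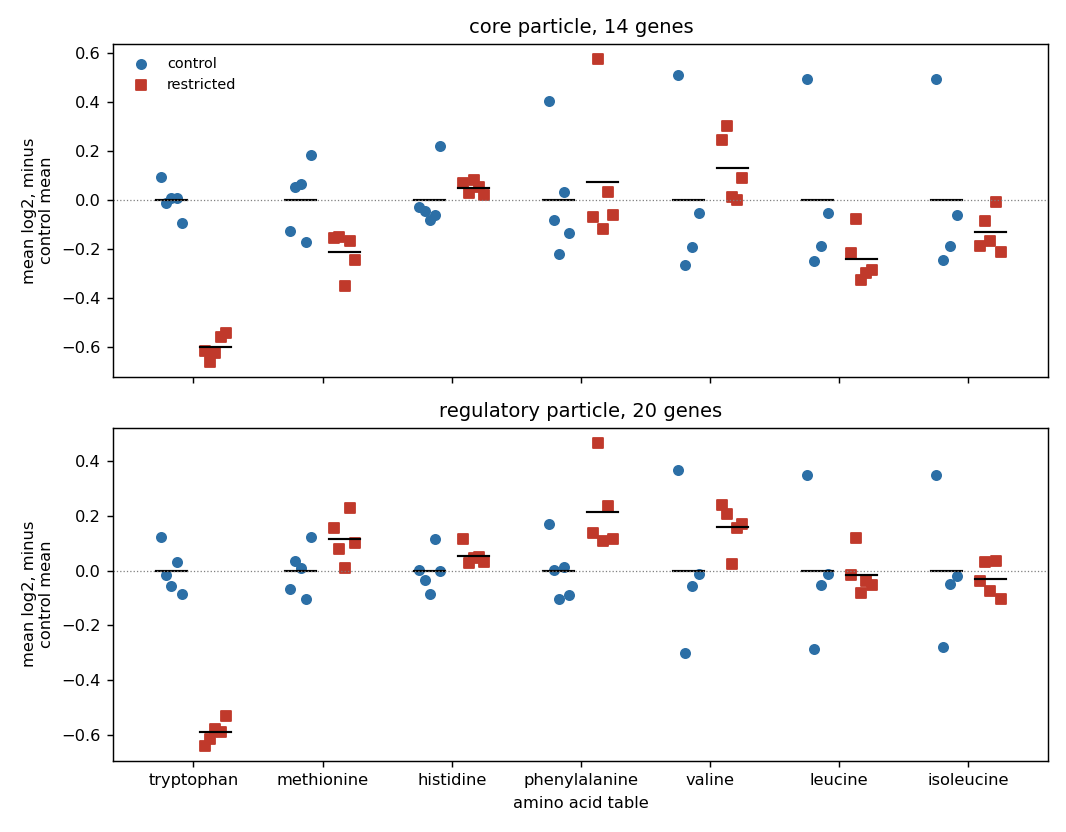
Each point is a library's mean log2 level over the 14 core genes (top) or 20 regulatory particle genes (bottom), minus the mean of its table's controls, with group means as lines. Tryptophan-restricted libraries lie together between -0.66 and -0.54 in the core, and phenylalanine restricted 2 (0.57), phenylalanine control 1 (0.40) and branched-chain control 1 (0.49 to 0.51) lie apart from their groups.

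Valine restriction gave 4 called members, all higher: PSMA7, PSMD2, PSMD6 and PSMD14, against 5.13% higher and 7.36% lower of all 16771 genes. PSMA7 had 6079, 7584, 5049, 4821 and 4921 normalised counts in restricted libraries and 5667, 2782, 3029 and 3117 in the 4 branched-chain controls (0.68 ± 0.21 (SE), adjusted p = 0.0497). The groups overlapped through branched-chain control 1 alone. PSMD14 had 2053, 1908, 1653, 1966 and 2007 against 1596, 1064, 1449 and 1360, without overlap (0.50 ± 0.13 (SE), adjusted p = 0.0298), and PSMD6 and PSMD2 rose by 0.45 and 0.41.

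The protease genes under valine restriction did not pass the test. PSMB5 had 1287, 1343, 983, 1025 and 1066 against 2470, 1257, 1233 and 1355 (-0.41, adjusted p = 0.197). PSMB6 had 3109, 4050, 2725, 2705 and 2827 against 3363, 1687, 1576 and 1898 (0.59, adjusted p = 0.0871). PSMB7 had 3463, 4577, 2915, 3013 and 3499 against 5012, 2686, 2689 and 3076 (0.09, adjusted p = 0.817). In each of them branched-chain control 1 was far above the 3 other controls, and for PSMB6 the restricted libraries all exceeded those 3.

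None of the 4 valine calls lasted when each library was left out in turn. Leaving out branched-chain control 1 gave 4 core and 7 regulatory particle calls, all higher, whereas the core count was 0 without valine restricted 1, 3, 4 or 5 or branched-chain control 3 or 4. Without valine restricted 2 or branched-chain control 5 PSMA7 lost its call as well (adjusted p of 0.0713 and 0.135), and PSMA5 was called higher in its place (0.52 and 0.60). The regulatory particle calls went to 0 without valine restricted 1, 4 or 5 or branched-chain control 3 or 5. Valine restricted 2 had the highest core mean of its group (0.30), but valine restricted 1 was close to it (0.24). In the regulatory particle valine restricted 1 had the higher mean (0.24 against 0.21), so valine restricted 2 did not stand apart. Without branched-chain control 1 and valine restricted 2, the core had 6 genes higher and 1 lower and the regulatory particle 9 higher. PSMA7 (0.81), PSMB6 (0.73) and PSMB3 (0.62) then rose most in the core and PSMB4 fell by 0.36. Under equal totals, which raised the all-gene median by 0.11, 5 core and 8 regulatory particle genes were called higher, and the share of called genes that were higher went from 41.1% to 63.7%. For valine, too, the share of all genes called is not given for equal totals or for the leave-outs. The member counts in them are therefore not read as a result about the members. Valine restricted 5 had summed fibroblast markers of 1130, against at most 365 in the rest of its group.

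Leucine restriction called 1 member, PSMA2, lower, and 0 higher, against 3.41% higher and 4.33% lower of all 16488 genes. PSMA2 had 1224, 1392, 1195, 1227 and 1178 in restricted libraries and 2870, 1575, 1892 and 1865 in controls, without overlap (-0.69 ± 0.15 (SE), adjusted p = 0.0179). The call was lost without leucine restricted 3 or 5, at adjusted p of 0.0515 and 0.0502. Without branched-chain control 1, PSMA2 fell by 0.51 (adjusted p = 0.00484) and PSMD6, PSMC6 and PSMC3 were called higher at 0.37, 0.42 and 0.39. In the regulatory particle 1 gene was called lower without leucine restricted 2 (PSMD2, -0.33) and 1 without branched-chain control 3 (PSMD14, -0.39). All 14 core changes were below 0 with a median of -0.22, and the median was -0.03 for the regulatory particle and 0.00 for all genes. Without branched-chain control 1 the core median was -0.083 and the changes of PSMA7, PSMB1, PSMB2, PSMB4 and PSMB5 were above 0. PSMB5 had 1296, 1666, 1318, 1166 and 1396 against 2284, 1190, 1158 and 1270 in controls (-0.06, adjusted p = 0.881). PSMB6 had 1458, 1716, 1483, 1328 and 1494 against 3102, 1592, 1476 and 1775 (-0.35, adjusted p = 0.262), and PSMB7 had 2244, 2528, 1841, 2186 and 2082 against 4630, 2539, 2521 and 2881 (-0.49, adjusted p = 0.0927). In these 3 protease genes branched-chain control 1 was again the highest control. Leucine, valine and isoleucine share their controls, so their values stand side by side without a test between them.

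Isoleucine restriction called 0 members by limma, and 0 of the 34 had an unadjusted p under 0.05. The share called was 0% of all 16623 genes in either direction, of which 872 had an unadjusted p under 0.05. The changes of the members ranged from -0.27 for PSMA7 and PSMB3 to 0.14 for PSMD6, with medians of -0.12 in the core and -0.03 in the regulatory particle. PSMB5 had 1337, 1444, 1229, 1483 and 1354 against 2380, 1245, 1207 and 1315 in controls (-0.11 ± 0.17 (SE)). PSMB6 had 1620, 1796, 1797, 1801 and 1548 against 3236, 1668, 1540 and 1840 (-0.21 ± 0.18 (SE)), and PSMB7 had 2805, 3187, 2967, 3136 and 2720 against 4832, 2660, 2632 and 2989 (-0.10 ± 0.16 (SE)). Branched-chain control 1 was the highest library in each of these genes, and without it the medians over the members were 0.03 in the core and 0.07 in the regulatory particle.

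Differences between responses were tested for the 4 amino acids with separate controls, in 6 pairs, each response being a difference within its own table. The tryptophan response of 28 members was lower than the histidine response, against 43.3% of all genes that differed in either direction. It was lower than the methionine response for 24 members (53.6% of all genes differed) and lower than the phenylalanine response for 24 (32.6% of genes), and it was higher for 0 members in each pair. PSMD12 differed most, by 1.22 from histidine (adjusted p = 1.57e-06), 1.54 from methionine (adjusted p = 7.99e-09) and 1.66 from phenylalanine (adjusted p = 3.92e-08). As a share of the total, PSMD12 was at 69.5 to 101 ppm in tryptophan controls and 28.5 to 57.3 in the other controls. In tryptophan-restricted libraries PSMD12 was at 39.0 to 48.0 ppm. Whether these differences come from the restricted or the control cultures cannot be told apart.

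Between histidine and methionine 13 members differed (34.4% of genes), 8 higher and 5 lower with histidine. PSMB3, PSMB4 and PSMB7, which fell with methionine, differed by 0.85, 0.81 and 0.73, and PSMA3, PSMC4 and PSMD10 by -0.75, -0.63 and -0.39. Between histidine and phenylalanine 9 differed (9.66% of genes), 3 higher and 6 lower with histidine. The higher ones were PSMD13 (0.62), PSMD7 (0.59) and PSMD6 (0.37), and PSMD10 (-0.93), PSMD1 (-0.82) and PSMA3 (-0.76) were the lowest. Between methionine and phenylalanine 13 differed (29.4% of genes), 4 higher and 9 lower with methionine, among them PSMB7 and PSMD1, both at -0.96, and PSMD7 at 0.79.

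Other genes of the pathway were read in the same fits. The 4 regulatory particle proteins named outside the symbol rule (ADRM1 and SEM1, which are subunits, and the associated deubiquitinases UCHL5 and USP14) all fell with tryptophan, by 0.45, 0.28, 0.48 and 0.52. With histidine ADRM1, UCHL5 and USP14 rose by 0.70, 0.53 and 0.34 and SEM1 fell by 0.45, and with methionine USP14, UCHL5 and ADRM1 rose by 0.48, 0.38 and 0.27. Of the 5 core assembly chaperones, 4 fell with tryptophan: PSMG1 (-1.09), PSMG2 (-0.81), POMP (-0.79) and PSMG4 (-0.33). With methionine PSMG4, PSMG1 and PSMG2 fell by 0.93, 0.62 and 0.56, and with histidine 0 of 5 were called, with 1 at an unadjusted p under 0.05.

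The inducible subunits did not move as a block. PSMB8, an immunoproteasome protease, fell by 0.76 with methionine and 0.33 with tryptophan, while PSMB9 rose with tryptophan (0.32) and histidine (0.30) and fell with methionine (-0.39) and valine (-0.89). PSMB10 fell with methionine (-0.35) and was at 0.10 with tryptophan, where it was not called. PSMA8, the germline alpha subunit, rose from a low level with histidine (0.88), methionine (1.26), phenylalanine (0.79) and tryptophan (0.74). In the tryptophan table it went from 60.0 ± 12.6 (SD, n = 5) to 99.9 ± 16.4 (SD, n = 5) normalised counts, against the direction of its constitutive relatives.

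Among other regulators of the core, PSME3, a nuclear activator, rose by 0.88 with methionine, 0.51 with phenylalanine and 0.35 with histidine and fell by 0.33 with tryptophan. PSME1, of the interferon-induced activator, fell by 0.88 with methionine, 0.54 with valine and 0.16 with tryptophan. PAAF1, a regulatory particle chaperone, rose by 0.83 with histidine and 0.78 with methionine, and PSMF1 and PSME4 rose by 0.43 and 0.49 with methionine. NFE2L1 mRNA rose with methionine (0.67), tryptophan (0.60) and histidine (0.53), with no overlap of the groups in each. Its processing factors differed between those comparisons: NGLY1, which deglycosylates the protein, rose by 0.90 with methionine and 0.29 with histidine and fell by 0.78 with tryptophan. DDI2, the protease that cleaves it, rose by 0.65 with methionine and fell by 0.52 with tryptophan, and VCP, which extracts it from the membrane, fell by 0.81 with tryptophan. In a list of 10 genes that holds these 4, 1 was called higher and 1 lower with leucine (lowest change -1.63). With valine 0 were called higher and 3 lower (lowest -1.47), and with phenylalanine 0 and 2 (lowest -0.82). With isoleucine 0 were called, and the shares of all genes called are given above. These mRNA levels say nothing of the activity of the proteins.

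Of the genes for ubiquitin activation and delivery to the proteasome, UBA1, the main ubiquitin-activating enzyme, fell with tryptophan (-0.52) and histidine (-0.32), and UFD1, a cofactor of VCP, fell with tryptophan (-0.56). NPLOC4, its partner, rose with methionine (0.34), and RAD23B, a shuttle factor, and ZFAND5 rose with histidine (0.65 and 0.34). All 8 subunits of the chaperonin TRiC, the folding complex for actin and tubulin, fell with tryptophan, from -0.74 for TCP1 to -1.38 for CCT3. TRiC genes were also called lower with histidine (5 of 8), methionine (5 of 8, with 1 higher), valine (2 of 8) and phenylalanine (1 of 8). TRiC mRNA made up 5362 ± 287 (SD, n = 5) ppm in tryptophan controls, 3264 ± 131 (SD, n = 5) in restricted libraries and means of 2732 to 2768 in the other controls. The counts for these lists stand against the share of all genes called in each comparison given above.

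Some members cannot be read without a limit. PSMC1 shares sequence with PSMC1P1, a gene name whose mean in the tables was 787 to 1414 normalised counts, so reads may have been split between them, and PSMC1P1 moved with PSMC1 under tryptophan (-0.98) and histidine (0.43). Exons of PSMA2, PSMC1, PSMC5, PSMD13 and PSMD6 overlap those of MRPL32, NRDE2, FTSJ3, SIRT3 and PSMD6-AS2 on the other strand. The libraries were strand-specific per the labels, and the quantification's strand setting was not given in the sources used here.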

How the data were processed

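RNA of 59 Jurkat samples was made into strand-specific libraries, per the labels. Per the submitters' processing notes, GRCh38 was the build and the tools included DESeq2 1.44.0, kallisto 0.50.1 and FastQC 0.11.9. An annotation release or strand option was not given in the sources used here. Deposited signal values are normalised counts per gene, in 1 table per amino acid that the authors scaled on its own. Depth in reads is unknown: only 44.7 to 81.5% of low values in a column were whole multiples of a single read within 0.1, so no count model was used.

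Libraries were grouped by treatment label. log2(x + 1) values of genes with a table mean of at least 10 were fitted with limma 3.58.1 in R 4.3.3 (lmFit, eBayes with a trend, two-sided), checked on simulated data. Pairs of responses were tested as an interaction. No 2 libraries of a table were identical. Any member could be named, with each library's values for the largest called rise and fall per particle, PSMB5, PSMB6, PSMB7 and members called against the main direction. Other lists of 10 or fewer genes could be named whole, longer ones by the 3 smallest adjusted p. Some genes of the longer list are not reported here. Members and lists were chosen with earlier results of these data known. Same-numbered libraries were not treated as pairs. Alternatives were the pseudocount, the filter, TMM factors, equal totals, a replicate block, library weights and leaving libraries out.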

Additional observations from a re-analysis of the deposited data

Results flagged for a closer look

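Single libraries lay far from the rest of their group in 18 of 98 groups tested (18.4%), where the criterion alone picks about 1 in 20 of independent groups. These groups are not independent, since genes share libraries, branched-chain control 1 enters 3 tables and 3 libraries account for most of the 18, so the share is not read against that rate. Phenylalanine restricted 2 was highest for the core mean (0.57 above the control mean on the log2 scale) and for PSMB5 (1813 normalised counts), PSMB6 (3669), PSMB7 (6053) and PSMC3 (5593), and phenylalanine control 1 was highest for PSMB5 (2652). Branched-chain control 1 was highest for PSMB5 (2380, 2284 and 2470 in the isoleucine, leucine and valine tables), PSMB7 (4832, 4630 and 5012) and, in the valine table, PSMA7 (5667).

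In the histidine table, control 5 was highest for the core mean (0.22) and for PSMA3 (1373 normalised counts), restricted 1 was highest for the regulatory particle mean (0.11), and restricted 3 was lowest for PSMC2 (984). Leucine restricted 2 was highest for PSMA2 (1392).

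The test of the difference between responses called 13 members for histidine against methionine, 9 for histidine against phenylalanine, 28 for histidine against tryptophan, 13 for methionine against phenylalanine, 24 for methionine against tryptophan and 24 for phenylalanine against tryptophan.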

How the results depend on the processing

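Of the members called, 31 of 33 for tryptophan, 18 of 20 for histidine, 15 of 18 for methionine, 5 of 6 for phenylalanine, 0 of 1 for leucine and 0 of 4 for valine stayed called when each library was left out in turn. Leaving out single libraries gave 1 to 4 core calls and a regulatory particle median of 0.12 to 0.35 for phenylalanine, 0 to 1 core and 0 to 3 regulatory particle calls for leucine, and 0 to 4 and 0 to 7 for valine. Equal totals gave medians of -0.38 (core) and -0.35 (regulatory particle) for tryptophan and -0.11 and 0.20 for methionine. It gave 3 core and 8 regulatory particle calls for phenylalanine, 5 and 8 for valine and 1 regulatory particle call for leucine, and it reversed the tryptophan sign of PSMA1 (0.061), PSMB1 (0.0060) and PSMD4 (0.042). Library weights gave 11 and 10 calls for phenylalanine, 2 and 2 for leucine and 6 and 9 for valine, and 15 and 20 members that differed for histidine and for methionine against phenylalanine. Without the listed libraries (phenylalanine restricted 2 and control 1, branched-chain control 1, valine restricted 2) there were 11 and 10 calls for phenylalanine, 3 in the regulatory particle for leucine, 7 and 9 for valine, and 14 members that differed between histidine and phenylalanine. A mean of at least 100 gave 2 core calls for phenylalanine. For valine the single core call went to 0 with a pseudocount of 0.25, no filter or TMM factors, and the 3 regulatory particle calls went to 1 with no filter. Same-numbered libraries correlated between -0.19 and 0.19 in their deviations, with 3 of 32 pairs over 0.1 and 7 of 32 correlating best with their own number. With the replicate block, calls were 0 and 1 for phenylalanine and 4 and 5 for valine, and no other count of called members moved by over 1.5 times. Apart from the effects of building them, the cause of these changes was not tested. Shares of all genes called are not given for these alternatives, so their counts are not set against a background. Depth in reads is unknown, and group sizes of 4 and 5 limit the precision.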
